A study of Mus musculus with 24 samples.

Results

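The 9 genes described here were 7 genes for enzymes of the citric acid cycle (Cs, Idh2, Idh3a, Ogdh, Suclg1, Fh1 and Mdh2), 1 gene for an assembly factor of the cycle's succinate dehydrogenase (Sdhaf1), and Pcx, the gene for pyruvate carboxylase. They were chosen by symbol and matched to the gene identifiers of the deposited tables, and they were 9 of 37310 genes. RNA sequencing had been carried out on stromal vascular cells, the mixed cell fraction that holds the adipocyte precursors, taken from the inguinal white fat pad (white adipose tissue, WAT) and the interscapular brown fat pad (brown adipose tissue, BAT) of C57BL/6 mice aged 6 weeks. The confluent cells were kept for 4 days in induction medium with insulin, dexamethasone and isobutylmethylxanthine, and then in medium with insulin and T3 until day 8. EGCG (epigallocatechin gallate, a catechin of green tea) or DMSO, the control, was added to the medium. The 2 depots, 2 days (day 4 and day 8) and 2 treatments made 8 groups of 3 libraries, and the 24 libraries addressed how EGCG acts on gene expression while precursors of either depot become adipocytes. The labels gave no dose of EGCG, no sex of the mice and no statement of whether replicates of a group were separate cultures, so p-values may measure technical spread between these libraries only.

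The citric acid cycle runs in the mitochondrial matrix and oxidises the acetyl group of acetyl-CoA, passing electrons to the respiratory chain. Pyruvate enters it through pyruvate dehydrogenase, which makes acetyl-CoA, or through pyruvate carboxylase, which makes oxaloacetate and so refills the cycle when intermediates leave it. In adipocytes citrate leaves the mitochondrion and supplies acetyl-CoA for fatty acid synthesis, and brown adipocytes are known for their many mitochondria.

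Levels are given in FPKM, read counts scaled by the length of the gene and by the reads on genes of the library, and log2 changes are differences of log2(FPKM + 1) between group means of replicates 1 and 2. Replicates 1 and 2 came in 1 table (39452696 to 52893848 reads on genes per library) and replicate 3 in another that had been normalized separately (16392420 to 41675643 reads), so replicate 3 served for direction only. A change was called at an adjusted p under 0.05 in limma (moderated test, two-sided, Benjamini-Hochberg adjustment over 14095 tested genes), and all 9 genes passed the filter on low values. The WAT day 8 EGCG library of replicate 3 stood apart: 5 genes took 61.0% of its reads, against 3.64% to 10.5% in every other library, and its factor in a median-ratio scaling was 0.457, against 1.01 to 1.23 for the rest of replicate 3. Its deposited FPKM values are printed below but entered none of the calls. Of 111 calls on the 9 genes, fits in which replicate 3 as deposited took the place of replicate 1 or replicate 2 kept 38 and 37, and fits in which it did so after median-ratio scaling kept 103 and 102.

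Cell markers moved with treatment, day and depot. The summed FPKM of 20 mature adipocyte markers (Adipoq, Plin1, Fabp4 and others) was 4195 to 4652 in WAT control and 1183 to 1231 in WAT EGCG on day 4, and 7256 to 8281 against 695 to 757 on day 8. In BAT it was 7358 to 8561 against 1793 to 1869 on day 4, and 13493 to 13582 against 566 to 581 on day 8. Fabp4 alone ran from 117 to 7602 FPKM in these libraries. Of these 20 markers 18, 19, 19 and 20 were called lower with EGCG (WAT and then BAT, day 4 before day 8 in each), and none was called higher. Of all tested genes 19.3%, 18.9%, 20.6% and 26.1% were called lower there. The macrophage markers summed to 57.7 to 422 FPKM across the groups. Lyz2 weighed most in this sum: it alone ran from 40.5 to 355 FPKM, and the next highest marker, C1qa, from 1.61 to 34.5. Of 9 tested 7 and 5 were called higher with EGCG on day 4 in WAT and BAT (34.4% and 27.9% of all tested genes). Called lower on day 8 were 9 and 8 (18.9% and 26.1% of all tested genes). On day 8 the macrophage markers summed to 122 to 148 FPKM in WAT control and 57.7 to 61.1 with EGCG, and to 122 in both BAT controls and 60.2 to 61.3 with EGCG. The endothelial markers summed to 22.4 to 62.1 FPKM (8, 4, 7 and 6 of 9 tested were called higher with EGCG, in the order above, where 34.4%, 44.7%, 27.9% and 46.5% of all tested genes were, and Cldn5 was called lower on day 8 in both depots) and the skeletal muscle markers to 20.6 to 135 FPKM, with Pax7 at 0 in 9 libraries and Ckm at 0 in 2. Brown identity markers included Zic1 at 3.81 to 10.8 FPKM in the BAT groups and 0.0454 to 0.146 in the WAT groups, while Ucp1, the brown fat uncoupling protein, reached 6.56 FPKM in BAT day 8 control and was at or below 0.333 in the other groups. Lhx8 was called higher in BAT than in WAT in all 4 depot comparisons, Ebf2 in all but control day 4, and Prdm16 in all but EGCG day 8. Eva1 was called higher in BAT in control day 8 only, and lower in EGCG day 4 (-0.41 ± 0.15). Of 6 white identity markers 5 were tested. Hoxc10, Hoxc9 and Hoxc8 were called lower in BAT than in WAT in all 4 depot comparisons and Tbx15 in both control comparisons, while Agt was called higher in BAT with EGCG (1.45 ± 0.36 on day 4 and 2.30 ± 0.36 on day 8) and was not called in controls. These are bulk cultures, in which fewer cells of a type and less RNA per cell cannot be told apart, and the part of cell composition in the results below was not tested.

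The promoters of 4 transcripts are shown because their genes gave the contrast on which the results turn: Cs and Fh1 followed the shared pattern of the cycle enzymes, and Pcx departed from it. Promoter sequences came from RefSeq (GRCm38.p6), were placed on NCBIM37 (mm9) by exact match, and are the 250 bases before the transcription start, 5′ to 3′ on the strand of the gene. Capitals mark matches, on either strand, of the CCAAT box (CCAAT), the GC box (GGGCGG), the E-box (CACGTG) and the nuclear receptor half-site (AGGTCA).
Pcx, first promoter, chr19:4510222-4510471, plus strand: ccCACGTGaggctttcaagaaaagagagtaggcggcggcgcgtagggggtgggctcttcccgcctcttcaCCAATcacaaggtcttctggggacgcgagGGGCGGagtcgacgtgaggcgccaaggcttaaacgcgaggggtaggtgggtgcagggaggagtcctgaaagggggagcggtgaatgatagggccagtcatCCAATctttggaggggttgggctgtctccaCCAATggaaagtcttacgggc
Pcx, second promoter, chr19:4594069-4594318, plus strand: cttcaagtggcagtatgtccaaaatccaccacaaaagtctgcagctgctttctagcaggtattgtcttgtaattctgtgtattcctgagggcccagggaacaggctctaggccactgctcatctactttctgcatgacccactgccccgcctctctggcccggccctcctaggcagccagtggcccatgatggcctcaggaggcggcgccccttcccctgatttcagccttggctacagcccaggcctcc
Cs, chr10:127774533-127774782, plus strand: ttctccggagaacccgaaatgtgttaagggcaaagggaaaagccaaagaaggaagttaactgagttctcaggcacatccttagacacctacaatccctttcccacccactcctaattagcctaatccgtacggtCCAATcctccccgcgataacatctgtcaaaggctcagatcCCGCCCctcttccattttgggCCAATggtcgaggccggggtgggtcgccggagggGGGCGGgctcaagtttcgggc
Fh1, chr1:177555767-177556016, minus strand: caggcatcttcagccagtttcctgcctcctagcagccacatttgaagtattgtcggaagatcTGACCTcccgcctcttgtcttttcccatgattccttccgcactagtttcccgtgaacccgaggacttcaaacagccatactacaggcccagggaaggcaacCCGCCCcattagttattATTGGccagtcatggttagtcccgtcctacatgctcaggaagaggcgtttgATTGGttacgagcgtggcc

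RefSeq promoters were held for 8 of the 9 genes, 14 promoters in all, each a window of 300 bases with 250 before and 50 after the start. Idh3a was not matched. The GC box was present in 10 of the 14 promoters (7 of the 8 genes) and in 35.7% of all 32851 mouse promoters, and the CCAAT box in 12 of the 14 (6 genes) and 37.4%. The half-site was found in 3 of the 14 (3 genes) and 16.3% of all promoters, the E-box in 4 (2 genes) and 7.15%, and the NRF1 core (GCGCATGC) in 2 (1 gene) and 2.71%. Promoters of the same gene can overlap, so the 14 are not independent. No member promoter held the estrogen-related receptor element (TCAAGGTCA, which contains the half-site, in 0.423% of all promoters), the ETS element (CCGGAAGT, 3.89%), the C/EBP palindrome (TTGCGCAA, 0.183%) or the DR1 element (a pair of half-sites, 0.0396%). The second Pcx promoter, which starts inside the gene body far downstream of the first, held no match in its 250 upstream bases. The FPKM values are per gene and do not separate the Pcx transcripts of these promoters.

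**Figure D1:**
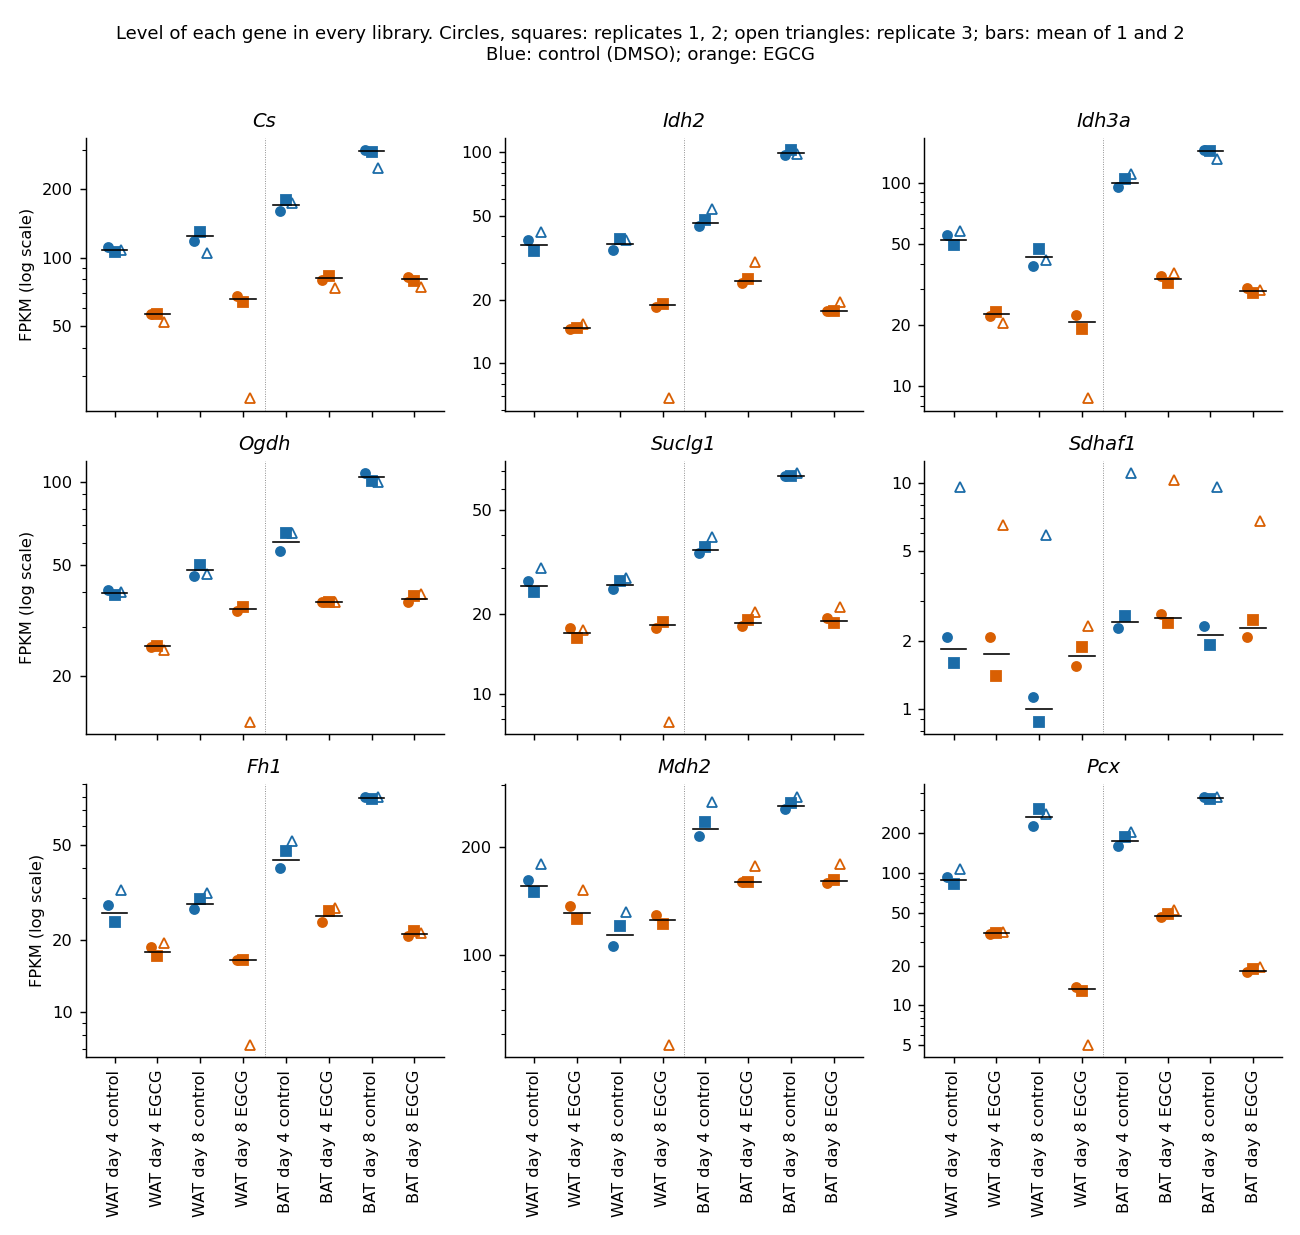
FPKM (log axis) of each of the 9 genes in all 24 libraries, with replicates 1 and 2 as filled symbols, replicate 3 as open triangles, control in blue and EGCG in orange. Pcx fell to 12.8 to 18.7 FPKM in the day 8 EGCG libraries of replicates 1 and 2 from 227 to 377 in their controls, and Sdhaf1 of replicate 3 lay above its group's other libraries in every group.

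Among the 9 genes the most abundant by FPKM, which is per length, was Mdh2 in 6 of the 8 groups and Pcx in the other two, the day 8 control groups of WAT and BAT. For 7 of the 9 genes (Cs, Idh2, Idh3a, Ogdh, Suclg1, Fh1 and Mdh2) the order of group means started with BAT day 8 control and then BAT day 4 control. For Pcx it ran from BAT day 8 control through WAT day 8 control, BAT day 4 control, WAT day 4 control, BAT day 4 EGCG, WAT day 4 EGCG and BAT day 8 EGCG to WAT day 8 EGCG, and none of the 7 neighbouring pairs overlapped in replicates 1 and 2. For Cs, Idh2, Idh3a and Ogdh 1 neighbouring pair of the 7 overlapped, for Fh1 2 pairs, for Suclg1 and Mdh2 3 pairs, and for Sdhaf1 6 pairs. The overlapping neighbours were both BAT EGCG groups for Cs and Ogdh, both WAT control groups for Idh2, and both WAT EGCG groups for Idh3a.

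With EGCG the transcripts of the 7 cycle enzymes fell in both depots, except that of Mdh2 in WAT on day 8, and Pcx had the largest fall of the 9 genes in all 4 comparisons. In WAT on day 4 Pcx, at -1.30 ± 0.11, was close to Idh2, at -1.24 ± 0.07, and the ranks were not tested. Of the 9 genes 8 were called lower in WAT on day 4 (19.3% of all tested genes were called lower), 7 in WAT on day 8 (18.9%), 8 in BAT on day 4 (20.6%) and 8 in BAT on day 8 (26.1%). Their median log2 changes were -0.62, -0.74, -0.88 and -1.85, against 0.09, 0.17, 0.03 and 0.17 over all tested genes. Sdhaf1 was called higher in WAT on day 8 (44.7% of all tested genes were called higher there) and was the member not called in the 3 other comparisons, and Mdh2 was the other member not lower in WAT on day 8. The medians of all genes above 0 went with more calls up than down: 64.1%, 70.3%, 57.6% and 64.0% of all called genes were higher, and 44.7%, 51.3%, 51.3% and 51.8% after median-ratio scaling, under which 31 of the 32 member calls stayed.

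Pcx encodes pyruvate carboxylase, which adds carbon dioxide to pyruvate. It lies at chr19:4510472-4621752 on the plus strand (ENSMUSG00000024892.8, protein coding). Its FPKM on day 8 was 227, 304 and 278 in WAT control (replicates 1, 2 and 3) and 13.7, 12.8 and 5.04 in WAT EGCG. In BAT it was 377, 365 and 374 in control and 17.8, 18.7 and 19.6 with EGCG. Every control library lay above every EGCG library of its depot. The group means differed 20.0-fold in WAT and 20.3-fold in BAT, with log2 changes of -4.21 ± 0.11 and -4.27 ± 0.11 (SE, n = 2 libraries per group) and adjusted p of 9.1e-11 and 3.6e-11 (limma). On day 4 the values were 92.9, 83.2 and 107 against 34.7, 35.4 and 35.6 in WAT, and 160.3, 187 and 205 against 46.3, 48.6 and 52.1 in BAT. These groups did not overlap either, and the falls were smaller, 2.51-fold and 3.65-fold.

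Cs encodes citrate synthase, which joins oxaloacetate and acetyl-CoA in the cycle's entry step (chr10:127774888-127799535, plus strand, ENSMUSG00000005683.7). On day 8 its FPKM was 298, 293 and 249.5 in BAT control and 81.8, 79.1 and 74.0 in BAT EGCG. In WAT it was 119, 129 and 105 in control and 67.4, 63.6 and 23.8 with EGCG, the last from the library that stood apart. On day 4 it was 161, 179 and 174 against 79.5, 82.8 and 73.1 in BAT, and 111, 106 and 108 against 56.4, 56.4 and 51.9 in WAT. EGCG libraries were low in each of the 4 comparisons without overlap, and the fold between means in WAT was 1.92 on day 4 and 1.89 on day 8, and in BAT 2.10 and 3.67. The log2 changes were -0.93, -0.91, -1.06 and -1.86, each with an SE of 0.06 and the largest adjusted p at 1.5e-07 (limma).

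Idh2 and Idh3a encode isocitrate dehydrogenases of the mitochondrion, Idh2 the NADP-dependent enzyme (chr7:87239732-87260278, minus strand, ENSMUSG00000030541.10) and Idh3a the catalytic subunit of the NAD-dependent enzyme of the cycle (chr9:54434288-54452468, plus strand, ENSMUSG00000032279.9). Idh2 on day 8 was 96.7, 102 and 98.1 FPKM in BAT control and 17.8, 17.7 and 19.5 in BAT EGCG, and 34.5, 39.0 and 38.2 in WAT control and 18.6, 19.1 and 6.84 in WAT EGCG. Idh3a on day 8 was 144, 143 and 130.1 FPKM against 30.2, 28.6 and 29.8 in BAT, and 39.1, 47.4 and 41.7 against 22.3, 19.1 and 8.72 in WAT. No EGCG library reached a control library of its depot for either gene. After Pcx these were the genes with the largest EGCG changes in BAT day 8, at -2.42 ± 0.07 for Idh2 (5.61-fold lower) and -2.25 ± 0.09 for Idh3a (4.88-fold lower), with adjusted p of 5.0e-11 and 1.1e-09 (limma). In WAT day 8 the log2 changes were -0.93 ± 0.07 and -1.03 ± 0.09. On day 4 Idh2 was 38.5, 33.9 and 41.7 FPKM in WAT control against 14.6, 14.8 and 15.3 with EGCG, and 44.8, 47.6 and 53.8 in BAT control against 24.03, 25.1 and 30.3. Idh3a was 55.1, 49.5 and 57.6 against 22.0, 23.1 and 20.6 in WAT, and 95.8, 104 and 109.9 against 34.6, 32.3 and 36.1 in BAT. Again EGCG libraries lay below all controls of their depot. Idh2 changed by -1.24 ± 0.07 in WAT and -0.89 ± 0.07 in BAT, and Idh3a by -1.17 ± 0.09 and -1.55 ± 0.09.

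Ogdh encodes the E1 subunit of the 2-oxoglutarate dehydrogenase complex (chr11:6191636-6256645, plus strand, ENSMUSG00000020456.10) and Suclg1 the alpha subunit of succinyl-CoA ligase (chr6:73198376-73226905, plus strand, ENSMUSG00000052738.7). Ogdh on day 8 was 107, 100.2 and 99.7 FPKM in BAT control against 36.8, 38.8 and 39.4 with EGCG, and 45.9, 50.2 and 46.7 in WAT control against 34.4, 35.4 and 13.7. Suclg1 was 67.4, 67.4 and 68.7 against 19.4, 18.5 and 21.4 in BAT, and 24.9, 26.8 and 27.5 against 17.7, 18.8 and 7.82 in WAT. The groups did not overlap, and the BAT gap was wider than the WAT gap for both genes. Log2 changes on day 8 were -1.43 ± 0.07 and -1.78 ± 0.06 in BAT and -0.45 ± 0.07 and -0.48 ± 0.06 in WAT, with a largest adjusted p of 9.4e-05 (limma). On day 4 Ogdh was 56.2, 65.2 and 65.6 FPKM against 36.9, 37.0 and 37.0 in BAT, and 40.7, 39.0 and 40.0 against 25.4, 25.7 and 24.8 in WAT. Suclg1 was 34.2, 36.0 and 39.6 against 18.1, 19.0 and 20.4 in BAT, and 26.8, 24.2 and 30.1 against 17.7, 16.2 and 17.5 in WAT. No groups overlapped, and the log2 changes were -0.70 and -0.88 in BAT and -0.62 and -0.56 in WAT, all called lower.

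Fh1 encodes fumarate hydratase (chr1:177530505-177555766, minus strand, ENSMUSG00000026526.7) and Mdh2 the malate dehydrogenase that regenerates oxaloacetate (chr5:136254350-136266268, plus strand, ENSMUSG00000019179.6). Fh1 on day 8 was 79.9, 78.4 and 79.5 FPKM in BAT control against 20.7, 21.8 and 21.4 with EGCG, and 27.0, 29.6 and 31.5 in WAT control against 16.5, 16.5 and 7.27. On day 4 it was 40.0, 47.1 and 52.0 against 23.9, 26.6 and 27.2 in BAT, and 28.2, 23.9 and 32.5 against 18.7, 17.1 and 19.5 in WAT. Fh1 was lower in every EGCG library than in any control of its depot and day. Its log2 changes on day 8 were -1.85 ± 0.09 in BAT and -0.74 ± 0.09 in WAT, and -0.76 ± 0.09 and -0.51 ± 0.09 on day 4. Mdh2 on day 8 was 256, 266 and 277 FPKM in BAT control against 159, 163 and 179 with EGCG, a log2 change of -0.70 ± 0.07. In WAT day 8 it was 106, 121 and 132 FPKM in control and 129, 122 and 55.9 with EGCG. There the EGCG libraries lay just above control in replicates 1 and 2 and below it in replicate 3. The log2 change of 0.15 ± 0.07 was not called (adjusted p = 0.078, limma) and was -0.05 after median-ratio scaling. On day 4 Mdh2 was 215, 236 and 268 FPKM against 159.9, 159.5 and 177 in BAT, with no overlap, and 162, 150.3 and 179 against 137, 126 and 152 in WAT, where replicate 3 of EGCG lay above replicate 2 of control. The Mdh2 changes on day 4 were -0.25 ± 0.07 in WAT and -0.49 ± 0.07 in BAT, and Mdh2 had the smallest fall of the 7 cycle enzymes in each of the 3 comparisons in which it was called.

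Sdhaf1, an assembly factor for succinate dehydrogenase (chr7:31106430-31107394, minus strand, ENSMUSG00000074211.3), was the lowest of the 9 genes in every group. In replicates 1 and 2 it ran from 0.878 to 2.64 FPKM over the 16 libraries. In replicate 3 it ran from 2.34 to 11.0 FPKM, 1.36 to 5.87 times the mean of the group's other libraries, which put it at the 99.6th to 99.8th percentile of all tested genes for this difference between tables. Of its 965 exonic bases 636 were shared with E130208F15Rik on the opposite strand. Whether counting used the strand is not given in the sources used here, so it is not known whether reads of the overlap were counted, or for which gene. E130208F15Rik itself stood at 0.166 to 0.763 FPKM in the 24 libraries. The Sdhaf1 values in WAT day 8 were 1.13, 0.878 and 5.88 FPKM in control and 1.55, 1.87 and 2.34 with EGCG, so that replicates 1 and 2 were higher with EGCG and replicate 3 lower. The log2 change of 0.44 ± 0.14 there (adjusted p = 0.015, limma) was 0.33 and no longer called after median-ratio scaling (adjusted p = 0.057) and it was below 0 in some fits that took in replicate 3. The other log2 changes were -0.05 (WAT day 4), 0.04 (BAT day 4) and 0.08 (BAT day 8), each with an SE of 0.14, and the groups overlapped.

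**Figure D2:**
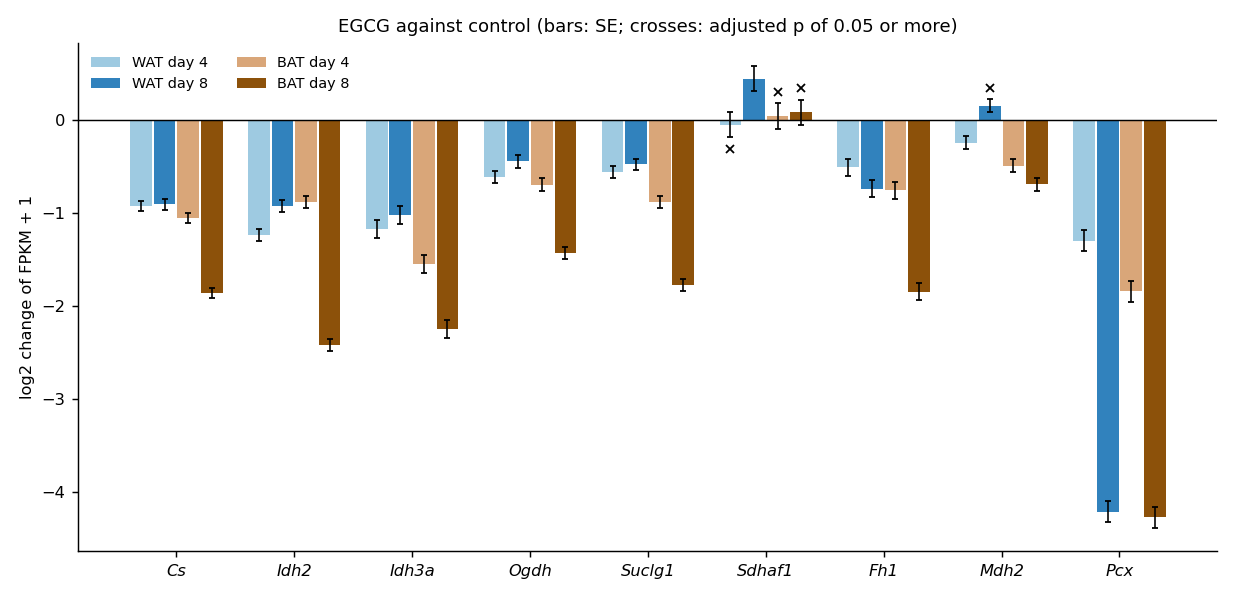
Log2 change of FPKM + 1 with EGCG against control for the 9 genes in each depot and day, from replicates 1 and 2 (bars from 0, whiskers for SE, crosses where the change was not called). The bars of Cs, Idh2, Idh3a, Ogdh, Suclg1 and Fh1 are deepest in BAT day 8, between -1.43 and -2.42, while those of Pcx reach -4.21 in WAT day 8 and -4.27 in BAT day 8.

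The EGCG effect differed between depots on day 8 for every cycle enzyme and not detectably for Pcx. The difference (BAT effect minus WAT effect, tested as an interaction in limma) was below 0 and called for 7 of the 9 genes, where 19.7% of all tested genes were called lower. It was -1.49 ± 0.09 for Idh2, -1.30 ± 0.09 for Suclg1, -1.22 ± 0.13 for Idh3a, -1.11 ± 0.13 for Fh1, -0.98 ± 0.09 for Ogdh, -0.95 ± 0.08 for Cs and -0.84 ± 0.10 for Mdh2, with a largest adjusted p of 5.4e-05. In replicate 3 as deposited, which holds the library that stood apart, 0 of these 7 genes had this direction (0.05 for Idh3a to 0.60 for Mdh2), and after median-ratio scaling 7 had it (-0.75 for Mdh2 to -1.22 for Idh3a). Of the 7 calls limma kept 1 with both tables as deposited, 7 with both tables less that library, and 0 without replicate 1 or without replicate 2. For Pcx the difference was -0.06 ± 0.16 (95% interval -0.41 to 0.29, adjusted p = 0.79, limma) and was not called, and depot differences within that interval remain possible. On day 4 the difference was called for 3 genes, higher for Idh2 at 0.36 ± 0.09 (12.0% of all tested genes) and lower for Suclg1 at -0.32 ± 0.09 and Pcx at -0.54 ± 0.16 (16.1%). The Suclg1 and Pcx calls of day 4 were lost after median-ratio scaling, at -0.23 and -0.45 with adjusted p of 0.071 and 0.060, where 61.5% of all called genes were higher in place of 42.7%.

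From day 4 to day 8 a growth of the effect was called for 6 of the 7 cycle enzymes in BAT, for none of them in WAT, and for Pcx in both depots. In BAT the day 8 effect minus the day 4 effect was called below 0 for 7 of the 9 genes (20.6% of all tested genes), at -2.43 ± 0.16 for Pcx and -1.54 ± 0.09 for Idh2, and between -1.09 and -0.70 for Fh1, Suclg1, Cs, Ogdh and Idh3a. For Mdh2 it was -0.20 ± 0.10 (adjusted p = 0.10, limma). Over all genes 62.8% of the calls of this difference in BAT were higher, and 49.3% after median-ratio scaling. In WAT it was called below 0 for Pcx alone of the 9, at -2.91 ± 0.16 (adjusted p = 1.8e-07), where 19.7% of all tested genes were called lower. It was called above 0 for Mdh2 at 0.40 ± 0.10 and Idh2 at 0.32 ± 0.09 (29.7% of all tested genes): Idh2 fell less on day 8 than on day 4, and Mdh2 fell on day 4 and was not called on day 8. In replicate 3 as deposited both differences were below 0 (-0.99 for Mdh2 and -0.94 for Idh2), and after median-ratio scaling above 0 (0.25 and 0.21). Both were also below 0 in the fits with both tables as deposited and without replicate 1 or replicate 2, and above 0 and called with both tables less the library that stood apart. For Cs in WAT the difference was 0.02 ± 0.08 (95% interval -0.16 to 0.20). For Fh1 in WAT it was -0.23 ± 0.13 (95% interval -0.51 to 0.05) and was not called, so a growth within that interval remains possible.

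In control cultures the cycle enzyme transcripts rose between day 4 and day 8 in BAT, with mixed small changes in WAT, while Pcx rose in both. In BAT 8 of the 9 genes were called higher on day 8 (28.7% of all tested genes), with a median log2 change of 0.79 against -0.10 over all genes, where 41.5% of all called genes were higher, and 53.3% after median-ratio scaling. Idh2 went from 44.8, 47.6 and 53.8 FPKM to 96.7, 102 and 98.1, Suclg1 from 34.2, 36.0 and 39.6 to 67.4, 67.4 and 68.7, and Fh1 from 40.0, 47.1 and 52.0 to 79.9, 78.4 and 79.5, with no overlap between days. The log2 changes of the 7 enzymes ran from 0.21 ± 0.07 for Mdh2 to 1.09 ± 0.07 for Idh2, and Sdhaf1 changed by -0.14 ± 0.14. In WAT 3 genes were called higher (27.7% of all tested genes): Pcx at 1.57 ± 0.11, Ogdh at 0.26 ± 0.07 and Cs at 0.19 ± 0.06. Called lower in WAT (33.2% of all tested genes) were Sdhaf1 at -0.50 ± 0.14, Mdh2 at -0.46 ± 0.07 and Idh3a at -0.27 ± 0.09. The summed FPKM of the 7 cycle enzymes in replicates 1 and 2 went from 648 and 716 to 1049 and 1049.8 in BAT, and from 463 and 426 to 396 and 443 in WAT. Skeletal muscle markers moved with day as well: all 6 tested were called higher in BAT control, where the list summed to 20.6 to 30.3 FPKM on day 4 and 59.7 to 62.5 on day 8, and 5 of the 6 were called lower in WAT control, at 81.5 to 83.7 and then 42.5 to 49.5 FPKM. The 9 tested macrophage markers were all called higher on day 8 in WAT control. The part of these lists in the day changes was not tested.

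The depot difference of this change (BAT minus WAT, interaction in limma) was called above 0 for the 7 cycle enzymes, from 0.50 ± 0.09 for Ogdh to 1.07 ± 0.09 for Idh2 (14.8% of all tested genes were called higher), with a largest adjusted p of 0.0015. For Pcx it was below 0, at -0.47 ± 0.16 (adjusted p = 0.034, 25.1% of all tested genes called lower), and Pcx rose 3.01-fold in WAT and 2.14-fold in BAT. That Pcx call was lost after median-ratio scaling, at -0.36 (adjusted p = 0.10), and after quantile normalization, at -0.28 (adjusted p = 0.11). Over all genes, 37.1% of the calls of this difference were higher, and 54.7% after median-ratio scaling. The adipocyte markers rose in both depots, 14 of 20 in WAT, with 1 called lower, and 17 of 20 in BAT. Of all tested genes 27.7% and 28.7% were called higher there. All 6 tested skeletal muscle markers (of 10) were called higher in this depot difference, like the cycle enzymes, from 1.06 ± 0.33 for Myog to 2.10 ± 0.17 for Myh1, and all 9 tested macrophage markers were called lower, with a median of -1.17. The part of either list in the differences of the members was not tested.

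With EGCG no cycle enzyme was called higher on day 8 in BAT, and Pcx fell in both depots. In BAT 3 of the 9 genes were called lower on day 8 (28.2% of all tested genes), Pcx at -1.33 ± 0.11, Idh2 at -0.45 ± 0.07 and Fh1 at -0.24 ± 0.09. Pcx fell from 46.3, 48.6 and 52.1 FPKM to 17.8, 18.7 and 19.6. In WAT Pcx was the 1 gene called lower (27.7% of all tested genes), at -1.34 ± 0.11, from 34.7, 35.4 and 35.6 FPKM to 13.7, 12.8 and 5.04. Ogdh, Idh2 and Cs were called higher in WAT (31.8% of all tested genes), at 0.43 ± 0.07, 0.34 ± 0.07 and 0.21 ± 0.06, and in replicate 3 they were lower on day 8 as deposited, in the library that stood apart, and higher after median-ratio scaling. Pcx moved in opposite directions between day 4 and day 8 in control and EGCG cultures of both depots.

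**Figure D3:**
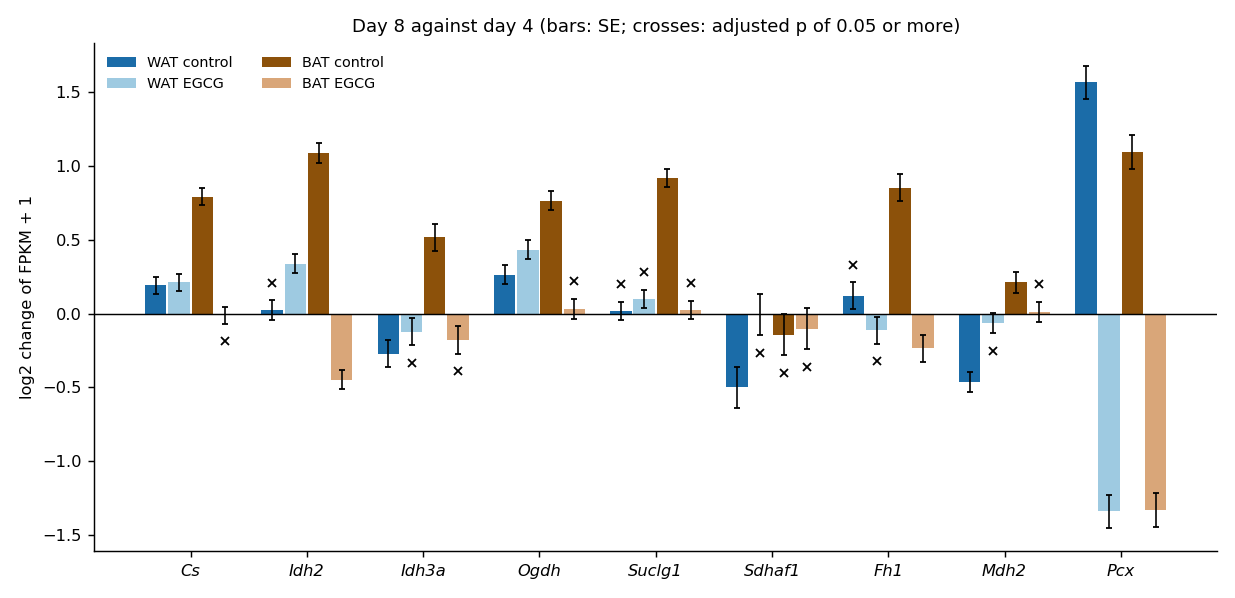
Log2 change of FPKM + 1 from day 4 to day 8 for the 9 genes in control and EGCG cultures of each depot, from replicates 1 and 2 (bars from 0, whiskers for SE, crosses where the change was not called). The BAT control bars of the 7 cycle enzymes lie between 0.21 and 1.09, and the Pcx bars point up in control (1.57 and 1.09) and down with EGCG (-1.34 and -1.33).

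BAT cultures held more of these transcripts than WAT cultures. Among controls 8 of the 9 genes were called higher in BAT on day 4 (41.4% of all tested genes) and 9 on day 8 (31.6%), with median log2 differences of 0.59 and 1.25, against 0.15 and 0.05 over all genes. On day 8 the 7 cycle enzymes were 2.16-fold (Ogdh) to 3.32-fold (Idh3a) higher in BAT, and Pcx 1.40-fold. Pcx was higher in BAT by 0.50 ± 0.11 on day 8 and by 0.97 ± 0.11 on day 4, the highest of the 9 values on day 4, next to Idh3a at 0.92 ± 0.09, and the lowest on day 8. With EGCG 8 genes were called higher in BAT on day 4 (32.9% of all tested genes) and 5 on day 8 (24.4%): Idh3a at 0.49 ± 0.09, Pcx at 0.43 ± 0.11, Mdh2 at 0.36 ± 0.07, Fh1 at 0.35 ± 0.09 and Cs at 0.29 ± 0.06. Idh2 on day 8 with EGCG was 17.8 and 17.7 FPKM in BAT and 18.6 and 19.1 in WAT (replicates 1 and 2), a log2 difference of -0.08 ± 0.07 that was not called. Of all called genes on day 4 in control, 74.3% were higher in BAT, and 51.6% after median-ratio scaling. In EGCG day 4 the share was 67.6%, and 56.9% after that scaling. On day 8 the shares were 59.0% in control and 63.6% with EGCG, and 48.9% and 53.1% after quantile normalization. Of the member calls between depots, median-ratio scaling ended that of Sdhaf1 in EGCG day 4 (adjusted p = 0.077) and no other.

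Pcx was also set against Cs within each library, a ratio that library scaling cannot change but that can still differ between the tables. On day 8 the ratio of Pcx to Cs FPKM was 1.91, 2.35 and 2.64 in WAT control and 0.203, 0.202 and 0.211 in WAT EGCG, so the library of replicate 3 that stood apart in FPKM lay next to its group here. In BAT day 8 it was 1.26, 1.25 and 1.50 against 0.218, 0.237 and 0.265. On day 4 it was 0.838, 0.787 and 0.990 against 0.615, 0.629 and 0.686 in WAT, and 0.994, 1.04 and 1.18 against 0.583, 0.587 and 0.713 in BAT. The WAT means in control and EGCG were 0.872 ± 0.106 and 0.643 ± 0.0377 on day 4 and 2.30 ± 0.369 and 0.205 ± 0.00523 on day 8 (SD, n = 3). The BAT means were 1.07 ± 0.0939 and 0.628 ± 0.0740 on day 4 and 1.34 ± 0.142 and 0.240 ± 0.0238 on day 8. Control and EGCG libraries did not overlap in any of the 4 comparisons. An exact two-sided permutation test gave p = 0.1 in each, the smallest that 3 against 3 libraries can give. The lack of overlap fixes this value, so the test adds nothing to it. Replicate 3 had the highest ratio in every group, so these means, SDs and tests take in a difference that went with the table.

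**Figure D4:**
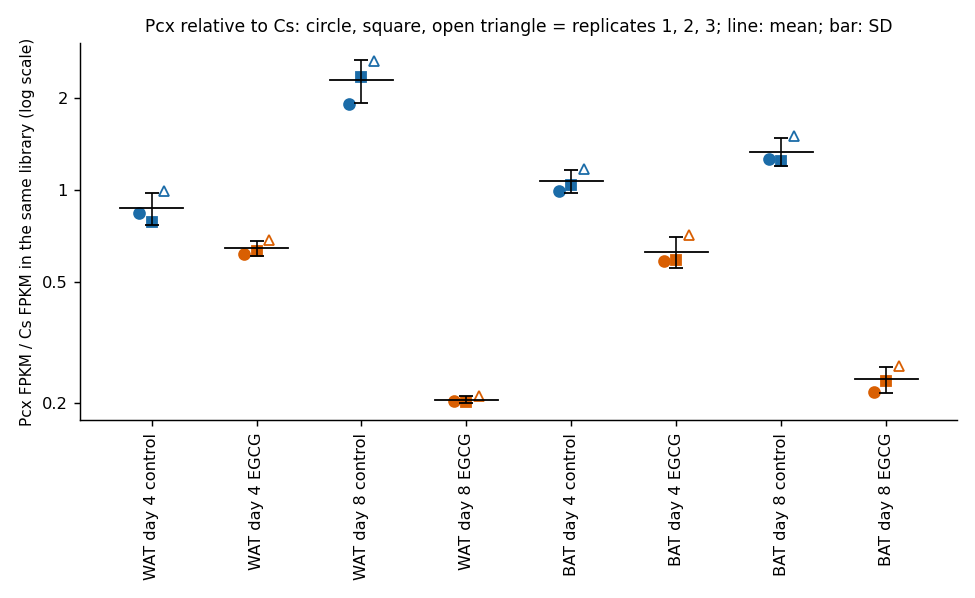
Ratio of Pcx FPKM to Cs FPKM within each library (log axis) in the 8 groups, with the mean (line) and SD (bar) of 3 replicates. The mean ratio was highest in WAT day 8 control, at 2.30, and lowest in WAT day 8 EGCG, at 0.205. Replicate 3 had the highest ratio within every group.

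Of 13 other genes of the cycle and its succinate dehydrogenase assembly, 10, 9, 11 and 11 were called lower with EGCG (WAT and then BAT, day 4 before day 8 in each, where 19.3%, 18.9%, 20.6% and 26.1% of all tested genes were), with median log2 changes of -0.39, -0.39, -0.65 and -1.51. Those called lower in BAT day 8 included Idh3g, a subunit of the NAD-dependent isocitrate dehydrogenase, at -2.33 ± 0.08, and Sdha, the flavoprotein subunit of succinate dehydrogenase, at -2.08 ± 0.07. The assembly factors Sdhaf2 and Acn9, like Sdhaf1, were not called in BAT day 8. Sdhaf2 was called higher in WAT day 8, at 0.34 ± 0.06. Among controls of day 8 all 13 were called higher in BAT than in WAT, Sdha by 1.57 ± 0.07 (31.6% of all tested genes were called higher), and the depot difference of the EGCG effect on day 8 was called below 0 for 12 of the 13 (19.7% of all tested genes).

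Among 13 genes of pyruvate entry (the pyruvate carrier, the pyruvate dehydrogenase complex, its kinases and its phosphatases) 8, 12, 9 and 12 were called lower with EGCG in the same order of groups, and 2, 1, 2 and 1 were called higher. Of all tested genes 19.3%, 18.9%, 20.6% and 26.1% were called lower, and 34.4%, 44.7%, 27.9% and 46.5% higher. In BAT day 8 the largest falls were in Pdk4 and Pdk2, kinases that inhibit pyruvate dehydrogenase, at -3.50 ± 0.21 and -2.61 ± 0.10, and in Pdhb, the E1 beta subunit, at -2.91 ± 0.10. Pdhb was also the member of this list with the largest fall in WAT day 8, at -1.82 ± 0.10, less than that of Pcx. Mpc2, a subunit of the mitochondrial pyruvate carrier, changed by -1.09 in WAT and -1.53 in BAT on day 4, the largest falls of the list on that day. Pdk1 was called higher on day 4, at 2.00 ± 0.07 in WAT and 0.52 ± 0.07 in BAT, and Pdk3 was called higher in all 4 comparisons, by 0.31 to 0.60.

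Of 12 genes of citrate export and cytosolic citrate and malate use 11 were tested, of which 6, 8, 8 and 10 were called lower and 2, 2, 1 and 1 higher with EGCG. Of all tested genes 19.3%, 18.9%, 20.6% and 26.1% were called lower, and 34.4%, 44.7%, 27.9% and 46.5% higher. Me1, the cytosolic malic enzyme, changed by -4.08 ± 0.09 in WAT day 8 and by -3.36 ± 0.09 in BAT day 8, beside Pcx at -4.21 and -4.27. Its mean FPKM in WAT was 23.4 in day 4 control, 325 in day 8 control and 18.2 in day 8 EGCG. Slc25a10, the dicarboxylate carrier, changed by -3.15 and -2.98 on day 8, and Acly, which cleaves citrate into acetyl-CoA and oxaloacetate, by -2.57 ± 0.23 and -2.91 ± 0.23. Acly was not called on day 4 in either depot, where Pcx changed by -1.30 and -1.84. Me2, a mitochondrial malic enzyme, was called higher in all 4 comparisons, by 0.28 to 1.02. From day 4 to day 8 in control, Me1, Acly and the citrate carrier gene Slc25a1 rose in WAT by 3.74, 2.18 and 1.58, and in BAT by 2.28, 1.70 and 1.25.

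Of 12 regulators of mitochondrial genes 10 were tested. Ppargc1a and Ppargc1b, the PGC-1 coactivators, were called lower with EGCG in all 4 comparisons, Ppargc1b at -1.68 ± 0.11 in WAT day 4 and -2.48 ± 0.11 in BAT day 8. Their levels were low, at 0.198 to 3.61 and 0.114 to 8.27 FPKM over the group means, so that the log2(FPKM + 1) scale understates their changes. Nrf1 was called higher in all 4, by 0.20 to 0.83, and Gabpa in 3. In BAT day 8 7 of the 10 were called lower and 3 higher, and in WAT day 8 3 lower and 4 higher, with median log2 changes of -0.49 and 0.01. Of all tested genes 26.1% were called lower and 46.5% higher in BAT day 8, and 18.9% and 44.7% in WAT day 8. Esrra, the estrogen-related receptor alpha, was called lower in BAT day 8 at -0.77 ± 0.09 and higher in WAT day 4 at 0.25 ± 0.09.

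**Figure D5:**
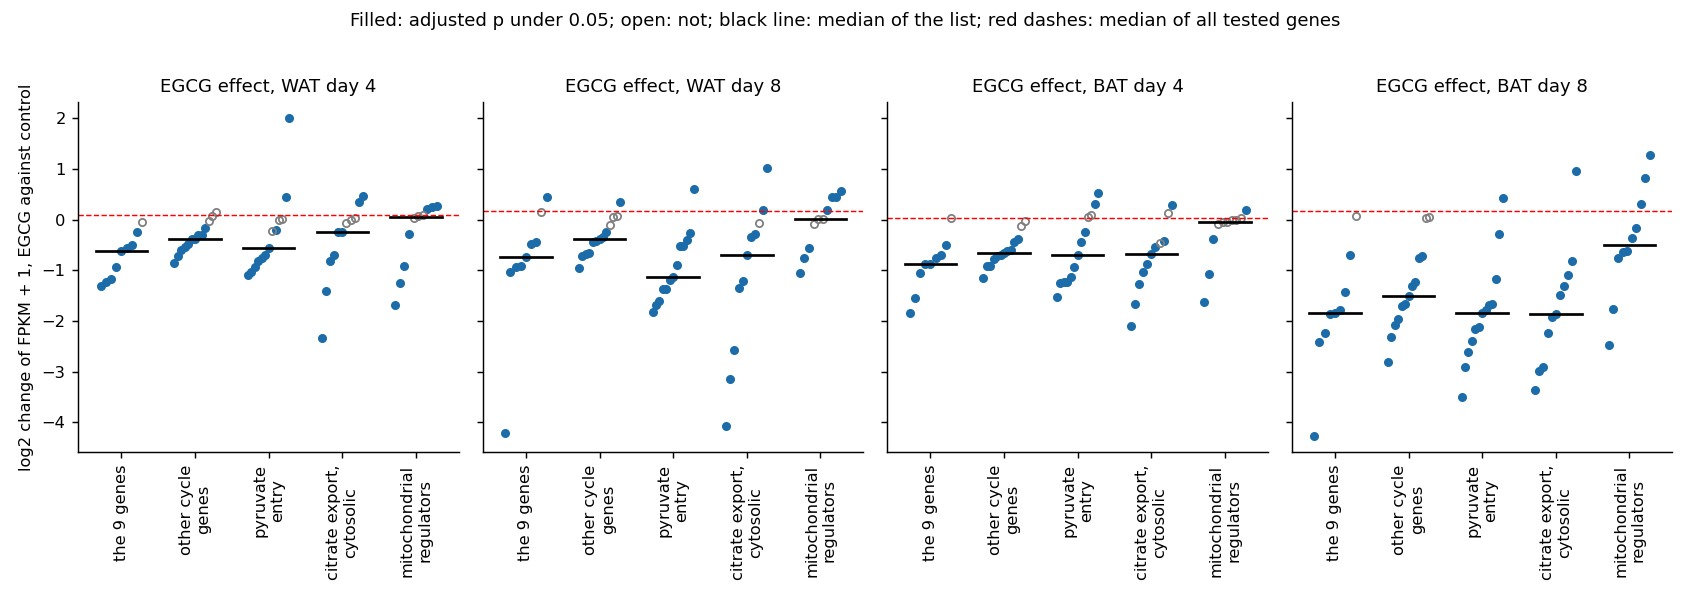
Log2 change of FPKM + 1 with EGCG for each gene of 5 lists in the 4 comparisons, filled where the adjusted p was under 0.05, with the list's median (black line) and the median of all tested genes (red dashes). In BAT day 8 the list medians are -1.85 (the 9 genes), -1.51, -1.84, -1.87 and -0.49, below the all-gene median of 0.17.

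Across the 16 libraries of replicates 1 and 2 the 9 genes were compared in pattern by Pearson's r of log2(FPKM + 1), a description over libraries that share groups, depth and normalization. Cs and Idh2 were most alike among the 9, at r = 0.98, and Fh1 followed the mean profile of the 9 closest, at r = 0.99. The mean profile holds each member's own values, which raises the r of members with it. Pcx reached r = 0.88 with Idh2, its nearest member, and 0.81 with the mean profile. Mdh2 reached 0.88 with the mean profile and 0.49 with Pcx, and Sdhaf1 reached 0.30 with the mean profile. The 5 non-member genes nearest to the mean profile, among 8696 with a mean of at least 5 FPKM, were Immt, Uqcr11, Sdhd, Cyc1 and Ndufb11, with r of 0.99 each. Immt encodes the inner membrane protein mitofilin and the other 4 encode subunits of the respiratory chain. Nearest to single members were Coq5 (Cs), Hadh (Idh2), Cycs (Idh3a), Ndufa10 (Ogdh), Cox4i1 (Suclg1), Ankrd13c (Sdhaf1, r = 0.91), Immt (Fh1), Ndufa12 (Mdh2, r = 0.98) and Acaca (Pcx, r = 0.99). Acaca encodes acetyl-CoA carboxylase, an enzyme of fatty acid synthesis in the cytosol, and was the nearest gene of Pcx where genes of mitochondrial proteins were nearest to the 7 cycle enzymes. After median-ratio scaling 3 of the 5 genes nearest to the mean profile were the same, and with a pseudocount of 0.1 4 of the 5.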

How the data were processed

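The authors deposited gene-level FPKM values in 2 tables, 1 with replicates 1 and 2 of every group and 1 with replicate 3, which had been normalized separately. Per the labels, reads were processed with FastQC 0.11.9, HISAT2 2.2.0 and HTSeq 0.11 on mm9. Every nonzero FPKM came out as whole reads within a tolerance of 0.01 reads (100.0% of values in the lowest library), the length used being that of the longest transcript. No column of per-sample values was left out.

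Replicates 1 and 2 were tested with limma 3.58.1 in R 4.3.3 on log2(FPKM + 1), with 8 group means, a mean-variance trend and 17 comparisons. Genes with at least 1 FPKM in at least 2 of the 16 libraries were kept, and Benjamini-Hochberg adjustment was applied per comparison. Fold changes on this scale understate those of low genes. The scripts were tested on simulated data. Depth was 16392420 to 52893848 reads on genes. The number of libraries limits the precision, and for Sdhaf1, at 34 to 127 reads per library in replicates 1 and 2, depth limits it as well. Promoters were read with Python 3.11.15. The genes named were the 9 members, the named lists' members with the largest changes, and the genes of most alike pattern. The members and lists were chosen with earlier results of these data known. Pseudocount, filter, scaling, count model (voom on recovered reads), samples and replicate block were varied. The values of 1 gene of the list of other cycle genes are not reported here.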

Additional observations from a re-analysis of the deposited data

Results flagged for a closer look

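The results below are differences between depots or days in the same contrast, each past an adjusted p of 0.05 in limma (interaction terms, replicates 1 and 2). The difference of the EGCG effect between depots (BAT minus WAT) on day 4 was 0.36 for Idh2, -0.32 for Suclg1 and -0.54 for Pcx. On day 8 it was -0.95 for Cs, -1.49 for Idh2, -1.22 for Idh3a, -0.98 for Ogdh, -1.30 for Suclg1, -1.11 for Fh1 and -0.84 for Mdh2. Among the mature adipocyte markers calls of this difference on day 8 went in both directions, and their part in these differences was not tested.

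The difference of the EGCG effect between days (day 8 minus day 4) in WAT was 0.32 for Idh2, 0.40 for Mdh2 and -2.91 for Pcx. In BAT it was -0.80 for Cs, -1.54 for Idh2, -0.70 for Idh3a, -0.73 for Ogdh, -0.89 for Suclg1, -1.09 for Fh1 and -2.43 for Pcx. The summed macrophage markers, in which Lyz2 weighed most, were higher with EGCG on day 4 and lower on day 8, and so moved with day as well. In neither depot was every tested macrophage marker called higher on day 4, and the part of this list was not tested.

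The difference between depots (BAT minus WAT) of the change from day 4 to day 8 in control cultures was 0.60 for Cs, 1.07 for Idh2, 0.79 for Idh3a, 0.50 for Ogdh, 0.90 for Suclg1, 0.73 for Fh1, 0.67 for Mdh2 and -0.47 for Pcx. All 6 tested skeletal muscle markers were called higher in this difference (1.06 for Myog to 2.10 for Myh1), where 14.8% of all tested genes were. All 9 tested macrophage markers were called lower (25.1% of all tested genes), and the part of these lists was not tested.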

How the results depend on the processing

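Each result was recomputed under 15 alternatives. Of 111 calls on the 9 genes, 110 were kept with a pseudocount of 0.1, 106 without the filter, 106 after median-ratio scaling, 106 after quantile normalization, 109 with voom on recovered reads and 105 with only the groups of the comparison. Fitting both tables as deposited kept 63, and 110 without the WAT day 8 EGCG library of replicate 3 or with median-ratio scaling, so that library decided most losses.

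Fitting both tables as deposited, the members called numbered 1 in WAT control, 1 in WAT EGCG and 1 in BAT EGCG between days, 5 in control and 2 in EGCG between depots on day 4, 0 and 1 for the depot difference of the EGCG effect on day 4 and day 8, 1 and 3 for its day difference in WAT and BAT, and 1 for the depot difference of the day change. Without the library that stood apart, the depot difference on day 4 and the day difference in WAT had 5 each. Median-ratio scaling gave 1 for the depot difference on day 4. Replicates 2 and 3 so scaled gave 2 in WAT EGCG between days, and replicates 1 and 3 gave 5 in BAT EGCG between days and 1 for the depot difference on day 4. Leaving out replicate 1 or 2 (as deposited, tables as a term) gave 3 to 3 for the EGCG effect on day 4 in either depot, 1 to 1 in WAT control, 1 to 2 in BAT control, 1 to 2 in WAT EGCG and 1 to 1 in BAT EGCG between days, 0 to 0 between depots on day 4, 0 to 0 for the depot differences, 1 to 1 and 1 to 2 for the day differences in WAT and BAT, and 0 to 0 for the depot difference of the day change.

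These values reversed, and the cause was not tested beyond leaving out that library. Sdhaf1 under EGCG in WAT day 8 was -0.055 in both tables, -0.22 and -0.39 without replicates 1 and 2, and -0.0085 in replicates 1 and 3 scaled. Mdh2 there was -0.15 in replicates 2 and 3 scaled, and Sdhaf1 in BAT day 8 was -0.44 in replicates 1 and 3 scaled. Between days in WAT EGCG, in both tables and without replicates 1 and 2, Cs was -0.22, -0.46 and -0.42, Idh2 -0.13, -0.36 and -0.37, and Ogdh -0.18 and -0.20 without replicates 1 and 2. For the day difference in WAT, Idh2 was -0.10, -0.39 and -0.23 and Mdh2 -0.064, -0.36 and -0.23.

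The replicate numbers did not pair the libraries: over 28 pairs of groups the correlation of deviations ran from -0.079 to 0.081. With a replicate block Pcx under EGCG in WAT day 8 was -4.21, and 1 call ended, Fh1 between days in BAT EGCG (adjusted p = 0.051).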
